A study of Mus musculus with 16 samples.

Results

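The laminin and integrin subunit genes were examined in primary murine tracheal epithelial cell cultures (MTECs), as protein-coding genes whose symbol names a laminin α, β or γ chain or an integrin α or β chain. There were 38 such genes among the 49315 gene identifiers of the count table, of which 21811 are protein-coding: 11 laminin chains, 18 integrin α chains and 9 integrin β chains. Another 4 symbols that match the pattern of letters (Itgb1bp1, Itgb1bp2, Itgbl1 and Itgb3bp) do not encode integrin chains and were left out. RNA sequencing covered 16 libraries in 8 groups of 2, which crossed sex (F or M), genotype (WT or KO for Lman1) and treatment. Cultures were either naive or given house dust mite (HDM) extract at 20 µg/ml overnight, which asks how the airway epithelium responds to the allergen in each sex and genotype. WT and KO mice were littermates on a C57BL/6J background, and their age at the time of culture is not given in the sources used here. As limits of the model, each culture came from pooled tracheas, and the cells grew at an air-liquid interface on inserts coated with basement membrane laid down by 3T3 cells, a mouse fibroblast line.

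Laminins are trimers of one α, one β and one γ chain and form the sheet of the basement membrane to which epithelia are anchored. Integrins are membrane receptors made of one α and one β chain that bind laminins, collagens or fibronectin-type ligands and tie them to the cytoskeleton. In airway basal cells, integrin α6β4 binds laminin-332, which holds the Lama3 and Lamb3 chains, in hemidesmosomes, while α3β1 binds the same laminin at sites of adhesion and migration, and αvβ6 and αvβ8 release active TGF-β from its latent form.

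Libraries held 21860698 to 43442188 counts. Lman1 itself measured 101.3 to 144.1 CPM (counts scaled to a common library size by TMM) in the 8 WT libraries and 12.8 to 78.1 CPM in the 8 labelled KO. In 5 of the libraries labelled KO, namely all 4 given HDM and M KO naive replicate 2, Lman1 lay above 20% of the WT mean of 120.5 CPM, so "KO" below names the label. Basal markers (7 genes) summed to 2002 to 13654 CPM, secretory markers (6 genes, mostly Cyp2f2) to 3766 to 20274 CPM and ciliated markers (7 genes) to 69.0 to 156 CPM, with the secretory gene Scgb1a1 at no more than 3.75 CPM. Endothelial markers summed to at most 3.20 CPM with Emcn at 0 in all libraries, and Schwann cell markers to at most 2.25 CPM. Fibroblast markers (8 genes, such as Col1a1 and Col3a1) summed to 547 CPM in F WT naive replicate 2 and 598 CPM in F WT HDM replicate 2, against 2.99 to 158 CPM in the other 14 libraries. For members, calls that rested on F WT naive replicate 2 or F WT HDM replicate 2 are given with and without them. Tests of cell type markers and of genes that work with the subunits are given only with all libraries. In bulk RNA, fewer cells of a type and less RNA per cell cannot be told apart.

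Per kilobase of exon, the most abundant members in naive cultures were Itgb1, Itgb4 and Itga3, chains of laminin-binding integrins. The 8 naive libraries averaged 139 CPM per kb for Itgb1, the β chain that pairs with most α chains, 128 for Itgb4, the β chain of hemidesmosomes, and 83.8 for Itga3. Itgb1 (115 to 167) and Itgb4 (118 to 142) overlapped, whereas every naive value of Itga3 (62.5 to 109) was lower than both. Lama5, the α chain of laminin 511, came next at 46.6 CPM per kb (39.5 to 52.3), and Itgb5, a partner of αv that binds vitronectin, at 45.6 (43.0 to 49.2), so these neighbours did not differ beyond their spread, and both overlapped Lamb3 (29.3 to 44.3). Lamb3 (37.1), Lamb2 (37.0) and Itga6 (32.0) also overlapped one another. Lamc1, Itgav, Lama3, Lamb1 and Itga5 followed between 18.2 and 5.87 CPM per kb, and 24 members averaged under 3 CPM per kb.

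Promoter sequence is shown for 4 members that HDM changed to different degrees in F WT cultures, so that their starts can be compared beside the values below. Itgb5 (chr16:33829415-33829664, plus strand) and Itgav (chr2:83724147-83724396, plus strand) had the smallest p-values of all members, Itgb1 (chr8:128685404-128685653, plus strand) was the most abundant, and Lama5 (chr2:180225860-180226109, minus strand) changed least among the laminin chains called. Each run is the 250 bases before the transcript start, 5′ to 3′ on the gene's strand, from RefSeq on GRCm38.p6. Capitals mark the GC box GGGCGG or its reverse complement CCGCCC and the TEAD motif GGAATG.
Itgb5: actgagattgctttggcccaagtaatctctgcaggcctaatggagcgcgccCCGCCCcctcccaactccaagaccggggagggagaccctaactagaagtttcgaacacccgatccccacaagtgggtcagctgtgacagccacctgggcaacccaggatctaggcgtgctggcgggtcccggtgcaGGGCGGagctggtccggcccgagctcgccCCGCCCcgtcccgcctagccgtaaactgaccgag
Itgav: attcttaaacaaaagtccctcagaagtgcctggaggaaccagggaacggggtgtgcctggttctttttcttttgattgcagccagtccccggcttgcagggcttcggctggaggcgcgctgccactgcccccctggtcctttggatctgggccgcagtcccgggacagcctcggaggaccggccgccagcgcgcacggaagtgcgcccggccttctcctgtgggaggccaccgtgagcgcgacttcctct
Itgb1: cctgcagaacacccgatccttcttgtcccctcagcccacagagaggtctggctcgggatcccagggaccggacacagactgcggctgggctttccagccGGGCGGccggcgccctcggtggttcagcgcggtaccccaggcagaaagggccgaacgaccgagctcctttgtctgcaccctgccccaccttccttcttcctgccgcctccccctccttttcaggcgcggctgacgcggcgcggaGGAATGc
Lama5: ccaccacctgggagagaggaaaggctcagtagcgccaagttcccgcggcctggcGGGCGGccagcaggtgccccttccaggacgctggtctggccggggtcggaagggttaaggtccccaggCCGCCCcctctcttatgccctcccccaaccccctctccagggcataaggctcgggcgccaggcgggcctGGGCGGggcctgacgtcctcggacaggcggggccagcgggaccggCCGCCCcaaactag
The GC box occurred 3 times before Itgb5, 4 times before Lama5, 1 time before Itgb1 and not before Itgav, while the TEAD motif occurred 1 time before Itgb1. GC content was 65.2% for Itgb5, 64.4% for Itgav, 68.0% for Itgb1 and 72.4% for Lama5, against a median of 52.4% over all promoters of the same length. RefSeq entries matched 24 of the 38 members. On either strand the GC box was found in 9 of their 27 promoter windows, close to its share of 32.74% among 32851 windows of that length. The TEAD motif GGAATG was found in 3 of 27 (12.64% of all windows), the AP-1 motif TGANTCA in 1 of 27 (6.75%) and TATAAA in none (12.37%).

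HDM raised a large share of the subunits listed here as epithelial in F WT cultures. Among the 32 members with enough counts to be tested, 14 rose, whereas 20.6% of all 15993 tested genes rose, and 2 fell, whereas 22.4% of all genes fell. The median log2 fold change (HDM over naive) was 0.54 over the 32 members and -0.02 over all genes. The epithelial list holds 13 subunits, and some of them, such as Itgb1, Itgav and Itgb5, are not confined to epithelium. Of these 13, 12 rose, among them Lama3, Lama5, Lamb3, Itga2, Itga3, Itgav, Itgb1, Itgb4, Itgb5, Itgb6 and Itgb8. Itga6 was the exception. Of 12 subunits listed as stromal, 10 were tested, none rose and 1 (Lama1) fell. The laminin chains Lamb1, Lamb2 and Lamc1 are on neither list, and of these Lamb1 and Lamb2 rose and Lamc1 was not called. These changes stood beside a drop in most epithelial cell type markers: 6 of 7 basal markers fell in F WT HDM cultures, where their summed level was 2002 and 4009 CPM against 10312 and 11178 CPM in F WT naive cultures, and 6 of 6 secretory markers fell. Their part in the changes of the members was not tested. Without F WT naive replicate 2 and F WT HDM replicate 2, a setting chosen after seeing the data, 13 members were called, 12 of them among the 16.

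**Figure D1:**
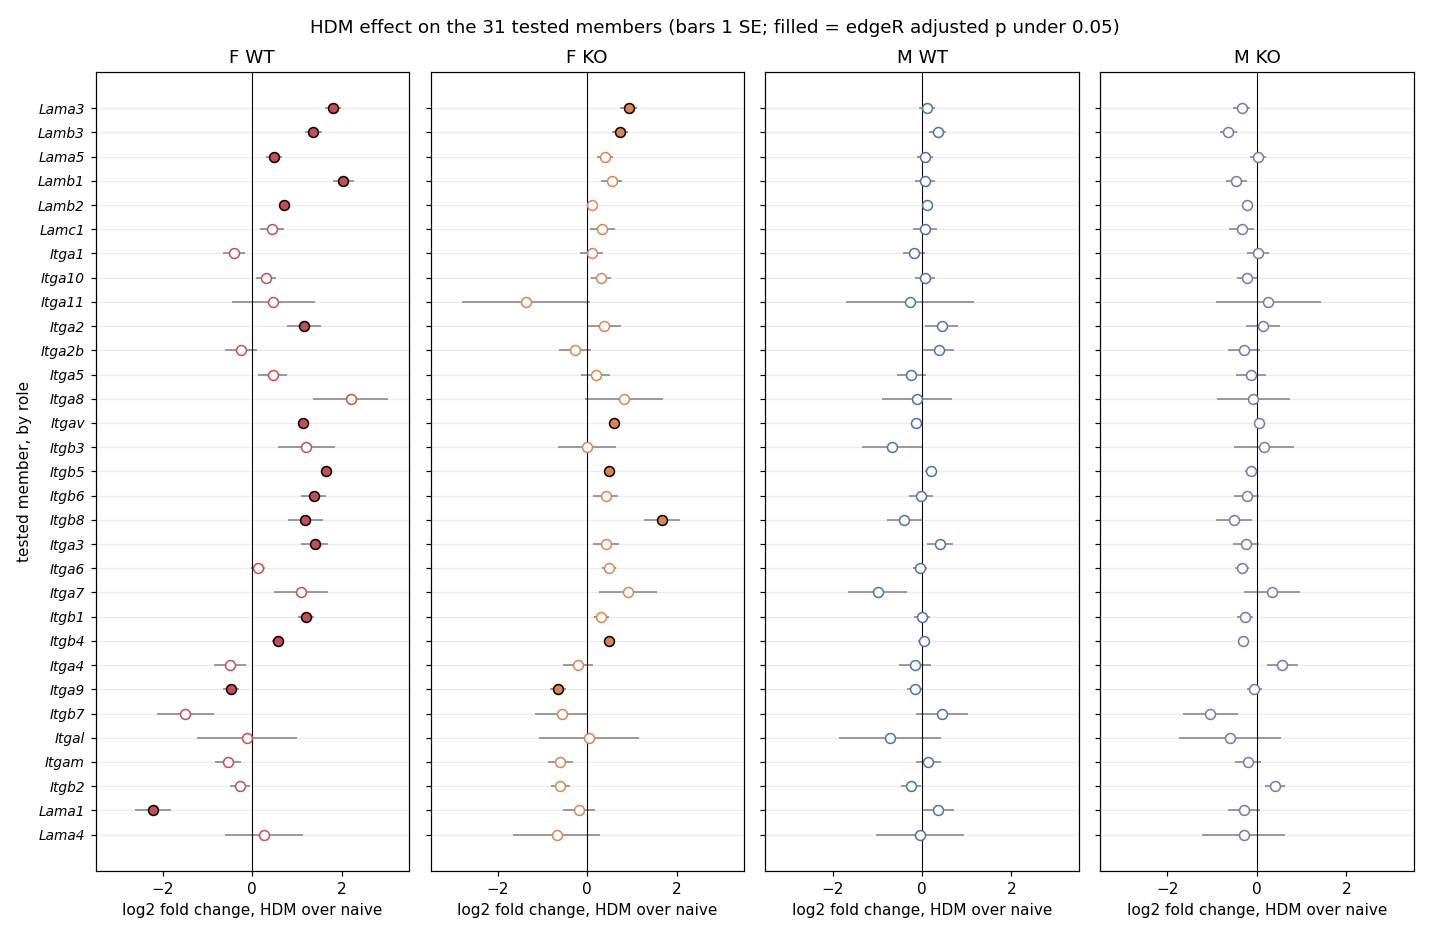
Log2 fold change of HDM over naive cultures (x axis) for 31 of the tested members, ordered by role (y axis), in F WT, F KO, M WT and M KO cultures. Points are estimates from 2 against 2 libraries, bars 1 SE, and filled points passed an edgeR adjusted p of 0.05. 15 filled points appear for F WT, 7 for F KO and none for M WT or M KO.

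Lama3 and Lamb3, chains of laminin-332, rose in F WT cultures. Lama3, the α chain, measured 106 and 159 CPM in the F WT naive libraries and 498 and 433 CPM with HDM, which did not overlap, a log2 fold change of 1.81 (SE 0.19, edgeR adjusted p = 2.29e-05). F KO libraries moved less, from 122 and 148 CPM to 240.5 and 272 CPM, or 0.93 (SE 0.18, edgeR adjusted p = 0.00908). In the 8 male libraries Lama3 ranged from 74.6 to 157 CPM, so that every male value lay below every HDM-treated female value. Lamb3, the β chain, went from 194 and 260.3 CPM to 632 and 539 CPM in F WT, a log2 fold change of 1.37 (SE 0.19, edgeR adjusted p = 0.000172). F KO libraries went from 203 and 259 CPM to 386 and 385 CPM, or 0.74 (SE 0.19, edgeR adjusted p = 0.028). Neither pair of groups overlapped, and the male libraries held 147 to 373 CPM, within which both M WT HDM values (347 and 373) exceeded both M KO HDM values (162 and 147). The F WT calls held when any one F WT library was left out. In F KO, Lama3 was lost without F KO naive replicate 1 or F KO HDM replicate 2 and Lamb3 without those or F KO HDM replicate 1, with adjusted p up to 0.109 and 0.232.

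The other laminin chains of epithelial basement membranes, of which only Lama5 is on the epithelial list above, split. Lamb1, the β chain of laminins 111, 411 and 511, had the largest called rise in F WT, from 54.5 and 88.6 CPM to 254 and 336 CPM, a log2 fold change of 2.04 (SE 0.23, edgeR adjusted p = 4.79e-05), or 4.11-fold. In F KO its libraries held 60.9 and 86.2 CPM and 113 and 102 CPM, which did not overlap, with a difference of 0.55 (SE 0.23, edgeR adjusted p = 0.157) that was not called. Male libraries held 40.3 to 77.6 CPM. Lamb2, the β chain of laminin 521 and of laminins at the neuromuscular junction, rose less, from 233 and 214 CPM to 381 and 351 CPM, or 0.71 (SE 0.10, edgeR adjusted p = 0.00021). F KO values of Lamb2 were 206 and 207 CPM and 221 and 228 CPM, which did not overlap but lay close together, and male values 197 to 269 CPM. Lama5 rose from 554 and 529 CPM to 849.8 and 674 CPM, or 0.49 (SE 0.18, edgeR adjusted p = 0.0407). Its call was lost without F WT naive replicate 1, F WT naive replicate 2 or F WT HDM replicate 1, with adjusted p up to 0.256. Lama5 measured 505 and 550.3 CPM and 612 and 788 CPM in F KO, where its difference of 0.41 was not called (edgeR adjusted p = 0.17), and 449.8 to 605 CPM in males. Lamc1, the γ chain shared by most laminins, was not called in any comparison. It held 129.7 and 147 CPM and 218 and 159 CPM in F WT, and M WT HDM replicate 1 was the highest of all libraries, at 232 CPM.

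**Figure D2:**
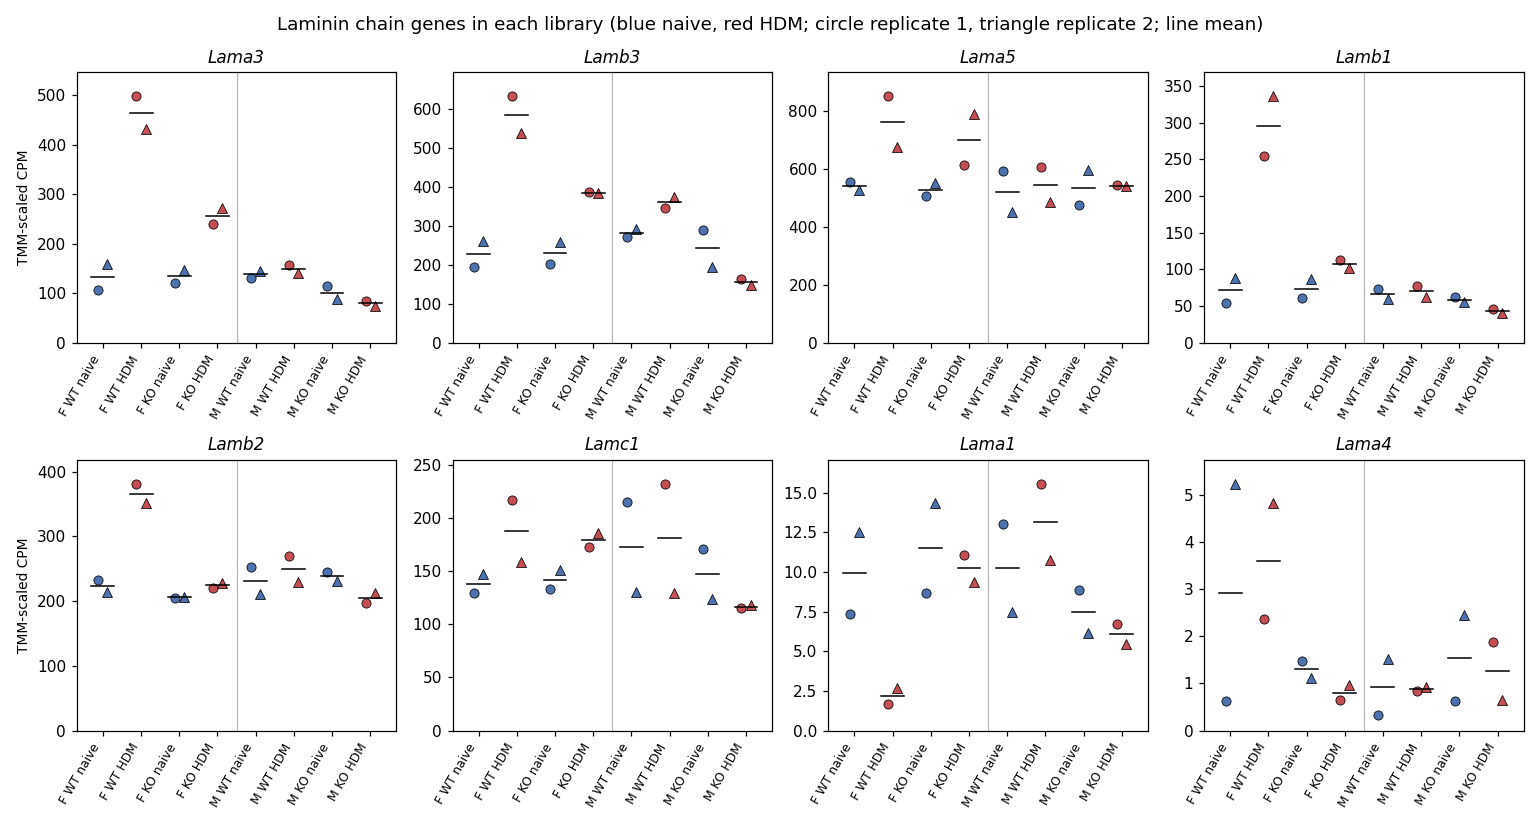
Laminin chain genes in TMM-scaled CPM (y axis, from 0) in each of the 8 groups (x axis). Circles are replicate 1, triangles replicate 2, lines the mean of 2, blue naive and red HDM. F WT HDM stands highest for Lama3, Lamb3, Lamb1 and Lamb2, with both replicates of Lama3 (498 and 433 CPM) above all other libraries, and lowest for Lama1 (1.67 and 2.65 CPM).

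Lama1, the α chain of laminin 111, best known from embryonic basement membranes, moved against the rest. It measured 7.34 and 12.5 CPM in F WT naive libraries and 1.67 and 2.65 CPM with HDM, a log2 fold change of -2.21 (SE 0.40, edgeR adjusted p = 0.00103), 4.64-fold lower. F KO libraries held 8.66 and 14.4 CPM naive and 11.1 and 9.38 CPM with HDM, which overlapped, and male libraries 5.47 to 15.5 CPM. Both F WT HDM libraries were lower than the other 14. The call in F WT held without any one F WT library and without both replicate 2 libraries. Lama4, the α chain of vascular and mesenchymal laminin 411, was low and uneven. It held 0.618 and 5.24 CPM and 2.37 and 4.83 CPM in F WT, with the higher value in both groups from the library rich in fibroblast markers, and was not called. Lama2, the α chain of muscle and nerve, and Lamc3 reached at most 6 and 4 counts in any library and were not tested.

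Among chains of laminin-binding integrins, Itga3, Itgb1 and Itgb4 rose in F WT and Itga6 was not called. Itga3 went from 422 and 471 CPM to 1093 and 1268 CPM, a log2 fold change of 1.40 (SE 0.30, edgeR adjusted p = 0.00291). F KO libraries held 437 and 531 CPM naive and 679 and 626 CPM with HDM, without overlap, at 0.43 (SE 0.29, edgeR adjusted p = 0.396). Male libraries spread widely, with 625 and 357 CPM in M WT naive and 857 and 442 CPM in M WT HDM, replicate 1 being higher both times. Without both F WT replicate 2 libraries the adjusted p of Itga3 in F WT became 0.0573. Itgb1 rose from 474 and 581 CPM to 1108 and 1314 CPM in F WT, or 1.20 (SE 0.18, edgeR adjusted p = 0.000252). In F KO it held 523 and 559.6 CPM and 694 and 657 CPM, a difference of 0.32 that was not called (edgeR adjusted p = 0.273), and in males 469 to 702 CPM. Itgb4 rose in both female genotypes to like levels. It went from 847 and 931 CPM to 1457 and 1196 CPM in F WT, or 0.58 (SE 0.12, edgeR adjusted p = 0.00302). F KO libraries went from 828 and 967 CPM to 1212 and 1324 CPM, or 0.50 (SE 0.12, edgeR adjusted p = 0.0262), a call lost without F KO naive replicate 1 or either F KO HDM library (adjusted p up to 0.223). Males held 724 to 994 CPM of Itgb4, below every HDM-treated female library. Itga6, the partner of β4, held 228 and 295 CPM and 332.4 and 243.7 CPM in F WT, which overlapped. In F KO, by contrast with F WT, the values 275 and 298 CPM and 395 and 408 CPM did not overlap, though the difference of 0.49 was not called (edgeR adjusted p = 0.0729).

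**Figure D3:**
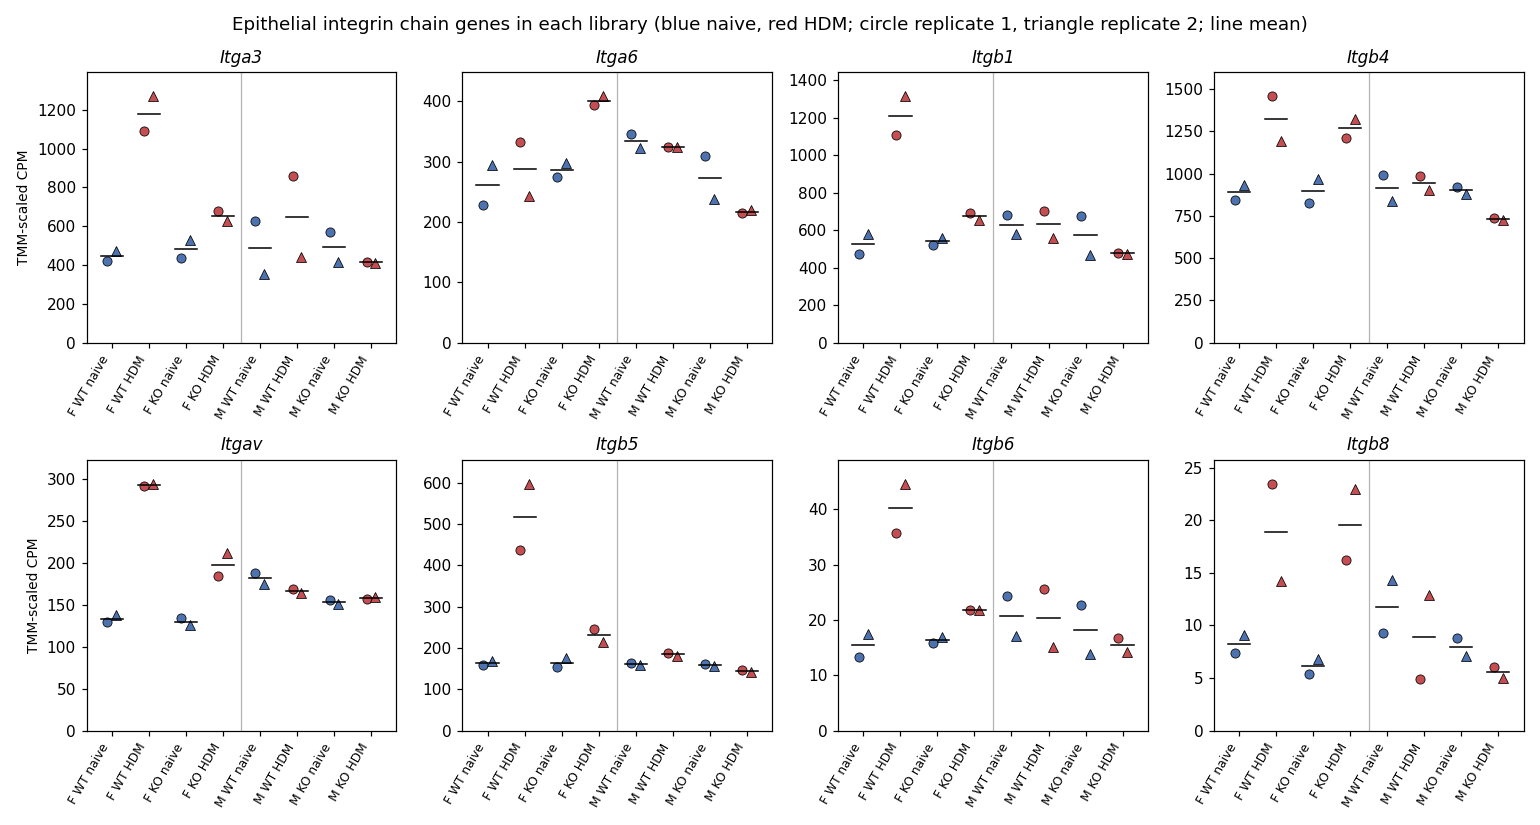
Integrin chain genes listed as epithelial, in TMM-scaled CPM (y axis, from 0) by group (x axis). Circles are replicate 1, triangles replicate 2 and lines the mean of 2. F WT HDM stands apart for Itgb5 (437 and 597 CPM), Itgav (292 and 294 CPM) and Itgb1 (1108 and 1314 CPM), while Itga6 is highest in F KO HDM (395 and 408 CPM) and lowest in M KO HDM (215 and 220 CPM).

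Of 8 chains of integrins that bind the RGD sequence of fibronectin, vitronectin or latent TGF-β, 4 rose in F WT and 3 in F KO. Among all tested genes 20.6% rose in F WT and 4.63% in F KO. Itgav, the αv chain that pairs with β3, β5, β6 and β8, went from 129 and 138 CPM to 292 and 294 CPM in F WT, a log2 fold change of 1.13 (SE 0.076, edgeR adjusted p = 9.94e-07). It rose in F KO as well, from 134 and 125 CPM to 184 and 212 CPM, or 0.61 (SE 0.075, edgeR adjusted p = 0.000838). In F KO the call of Itgav held under each alternative except a required 2-fold change, and its male libraries kept to 150.4 to 188 CPM. Itgb5, the vitronectin-binding partner, went from 159.5 and 168 CPM to 437 and 597 CPM in F WT, or 1.66 (SE 0.13, edgeR adjusted p = 2.65e-06). In F KO it went from 153 and 175 CPM to 246 and 215 CPM, or 0.49 (SE 0.12, edgeR adjusted p = 0.0279), a call lost without any one of the 4 F KO libraries (adjusted p up to 0.218). All 8 male libraries of Itgb5 ranged from 141 to 188 CPM, close to the naive female libraries. Itgb6, an epithelial chain that activates TGF-β, rose in F WT from 13.3 and 17.4 CPM to 35.8 and 44.5 CPM, or 1.38 (SE 0.28, edgeR adjusted p = 0.00209). It held 15.7 and 16.9 CPM and 21.8 and 21.7 CPM in F KO, where it was not called, and 13.8 to 25.5 CPM in males. Itgb8, the other chain known for TGF-β activation, rose in both female genotypes. It went from 7.41 and 9.13 CPM to 23.4 and 14.2 CPM in F WT, or 1.19 (SE 0.39, edgeR adjusted p = 0.0294). In F KO it went from 5.41 and 6.84 CPM to 16.2 and 22.9 CPM, or 1.68 (SE 0.40, edgeR adjusted p = 0.0219), the largest of the 7 called changes there. Both calls depended on single libraries: F WT lost it without either naive library or HDM replicate 1 (adjusted p up to 0.205), and F KO without either naive library or HDM replicate 2 (up to 0.177). Itga5, the α chain of the fibronectin receptor, and Itgb3, best known from platelets and osteoclasts, were not called for HDM in any group.

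Among the collagen receptors and the α4, α9 and β7 chains, Itga2 rose and Itga9 fell in F WT. Itga2, the epithelial collagen-binding α chain, rose in F WT from 11.6 and 16.6 CPM to 27.1 and 36.3 CPM, or 1.16 (SE 0.38, edgeR adjusted p = 0.0269), a call lost without F WT naive replicate 1 or F WT HDM replicate 2 (adjusted p up to 0.168). F KO libraries held 14.7 and 16.6 CPM and 16.9 and 23.9 CPM and males 13.9 to 41.3 CPM, with the highest value, 41.3 CPM, in M WT HDM replicate 1. Itga1, its neighbour on the minus strand of chromosome 13, was not called for HDM in any group. Itga9, which binds tenascin-C and osteopontin, fell in both female genotypes. It measured 23.6 and 17.2 CPM naive and 14.6 and 14.7 CPM with HDM in F WT, or -0.47 (SE 0.17, edgeR adjusted p = 0.0422). In F KO it measured 21.8 and 18.5 CPM and 12.3 and 13.3 CPM, or -0.65 (SE 0.17, edgeR adjusted p = 0.0325). Both calls rested on single libraries and were lost in F WT without naive replicate 1 or either HDM library (adjusted p up to 0.351) and in F KO without any one of its 4 libraries (up to 0.228). Itgb7, known from lymphocyte homing, held 5.92 and 4.74 CPM and 1.87 and 1.89 CPM in F WT, without overlap, at -1.50 (SE 0.64, edgeR adjusted p = 0.0785).

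The makeup of each chain family, taken as shares of its CPM per kb, moved with these values in F WT. Lama3 made up 16.6% and 23.6% of the laminin α chains in F WT naive libraries and 38.2% and 40.2% with HDM, with Lama5 at 82.0% and 73.7% and then 61.5% and 59.1%. In F KO the share of Lama3 was 20.0% and 21.6% naive and 28.9% and 26.5% with HDM. Across the 8 male libraries it lay between 12.6% and 25.1%, so no male library reached the HDM-treated female range. Lamb1, the least of the β chains, made up 7.51% and 10.7% in F WT naive libraries and 13.9% and 19.6% with HDM. For the laminin-binding α chains, Itga3 held 74.5% and 71.6% and then 83.8% and 89.1%, and Itga6 25.5% and 28.4% and then 16.1% and 10.8%. F KO did not share that shift of Itga3, which held 71.5% and 73.8% naive and 73.0% and 70.8% with HDM. These shares depend on exon lengths from the annotation and describe RNA, not assembled trimers, and none was tested.

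**Figure D4:**
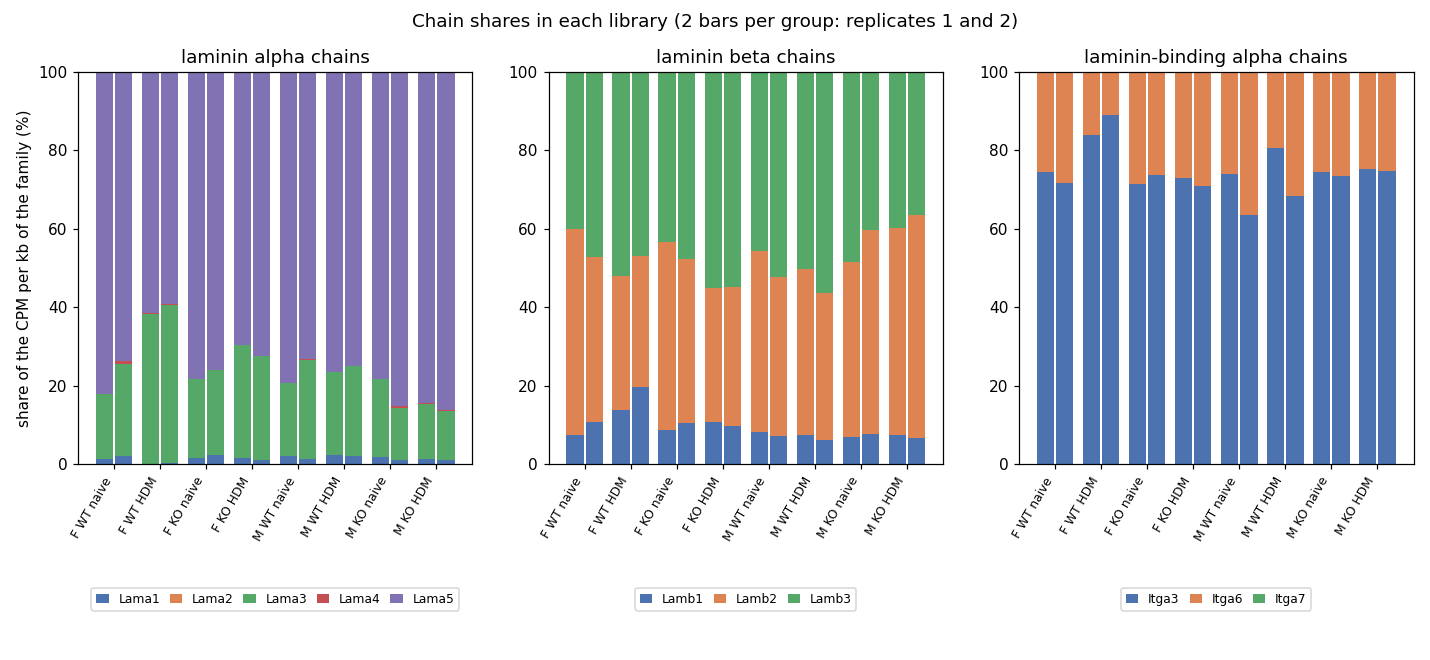
Share of each chain in the CPM per kb of its family (y axis, percent) in the 16 libraries (x axis, 2 bars per group for replicates 1 and 2), for laminin α and β chains and laminin-binding integrin α chains. The Lama3 part of the α chains reaches 38.2% and 40.2% in F WT HDM and stays at or below 28.9% elsewhere.

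HDM changed 7 members in F KO cultures, against 16 in F WT cultures. With any one library left out the number was 1 to 4 in F KO and 12 to 16 in F WT. In F KO, 6 members rose, whereas 4.63% of all tested genes rose, and 1 (Itga9) fell, whereas 5.77% of all genes fell. The median log2 fold change was 0.33 over the members and -0.005 over all genes. Basal markers were called lower in 1 of 7 cases and secretory markers in 4 of 6. The test of the difference between the responses (KO minus WT) called 6 members lower, whereas it called 5.08% of all genes lower, and 1 higher, whereas it called 6.16% of all genes higher. The 6 were Itgb5 at -1.17 (SE 0.18, edgeR adjusted p = 0.00279), Lamb1 at -1.49 (SE 0.32, edgeR adjusted p = 0.0163), Itgav at -0.52 (SE 0.11, edgeR adjusted p = 0.0119), and Lamb2, Itgb1 and Lama3 at -0.59, -0.88 and -0.88 (edgeR adjusted p = 0.0249, 0.0421 and 0.0493). Lama1 was the 1 member called higher, at 2.04 (SE 0.54, edgeR adjusted p = 0.0348). Itgb8, Itgb4 and Itga9, which were called in both genotypes in 1 direction, had differences of 0.49, -0.08 and -0.18 (SE 0.55, 0.17 and 0.24) that were not called. Leaving out any one of the 8 female libraries reduced these 7 calls to between 2 and 4, with Itgb5 called in each of those fits. Itgav was lost without F WT naive replicate 1, and Lamb1 without that library, F WT HDM replicate 2, F KO naive replicate 2 or F KO HDM replicate 2. Lamb2 was lost without any of the 8, Lama1 without any but F WT naive replicate 1, Itgb1 without any but F WT HDM replicate 1, and Lama3 without any but F WT naive replicate 2.

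Set against each other directly, HDM-treated F KO and F WT libraries differed in 13 members. In F KO, 11 were lower, whereas 14.3% of all genes were lower, and 2 were higher, whereas 14.9% of all genes were higher. The lower ones included Lama3, Lamb3, Lamb1, Lamb2, Itga3, Itgb1, Itgav, Itgb5, Itgb6 and Itga11. Among them were Itgb5 at -1.16 (SE 0.13, edgeR adjusted p = 0.000121), Lamb1 at -1.46 (SE 0.23, edgeR adjusted p = 0.00114) and Lama3 at -0.86 (SE 0.18, edgeR adjusted p = 0.00549). Lama1 at 2.25 (SE 0.40, edgeR adjusted p = 0.00227) and Itga6 at 0.48 (SE 0.16, edgeR adjusted p = 0.0404) were higher in F KO. Itga6 was lost without F WT HDM replicate 2 or either F KO HDM library (adjusted p up to 0.318). With any one of the 4 libraries left out, 6 to 10 members were called, and Lama1, Lama3, Lamb1, Lamb2, Itgav and Itgb5 were called in each fit. Lamb3, Itga3 and Itga11 were lost without any of the 4, Itgb1 without F WT HDM replicate 2, and Itgb6 without that library or either F KO HDM library (adjusted p up to 0.255 for these over all alternatives). Basal markers also differed, with 6 of 7 higher in F KO HDM, where they summed to 13654 and 10799.9 CPM, and 5 of 6 secretory markers were higher. Lower in F KO HDM were 3 of 8 fibroblast markers (Dcn, Lum and Pdgfra at -4.28, -5.86 and -3.24) and 1 of 5 smooth muscle markers (Tagln at -2.11). These 3 fibroblast markers stood high mainly in F WT HDM replicate 2, at 45.9, 28.0 and 11.8 CPM, against 2.25, 1.04 and 3.58 CPM in replicate 1. F KO HDM libraries held 1.69 and 0.788 CPM of Dcn, 0.202 and 0.286 of Lum and 0.726 and 0.895 of Pdgfra. Col1a1 was not called, at 0.12. The part of all these markers in the differences was not tested. This comparison shares the F WT HDM libraries with the HDM response of F WT and with the male comparison below, so the 3 are not independent.

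Male cultures gave no called member for HDM. In M WT 0 members and 0.0% of all genes were called by edgeR, with 0 members at an unadjusted p under 0.05, against 4.16% of all genes. DESeq2 called no member and 2 genes in all. In M KO 0 members and 0.0% of all genes were called, and DESeq2 called no member and 1 gene. An unadjusted p under 0.05 was reached by 2 of 32 members, Lamb3 (-0.64) and Itgb4 (-0.30), close to the 5.36% of all genes. Lamb3 held 289.5 and 194 CPM in M KO naive and 162 and 147 CPM in M KO HDM libraries, with no overlap but a wide naive pair. Itgav held 188 and 175 CPM naive and 169 and 164 CPM with HDM in M WT and 156 and 150.4 CPM and 157 and 159 CPM in M KO. The median over the members was 0.02 in M WT and -0.22 in M KO, against -0.001 and -0.02 over all genes.

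The response itself differed between the sexes. In WT the test of the difference (male minus female response) called 10 members lower, whereas 11.3% of all genes were called lower, and 1 (Lama1) higher, whereas 12.8% were called higher. They included Lamb1 at -1.97 (SE 0.33, edgeR adjusted p = 0.0015), Lama3 at -1.70 (SE 0.26, edgeR adjusted p = 0.00092), Itgb5 at -1.47 (SE 0.18, edgeR adjusted p = 0.000197) and Itgav at -1.26 (SE 0.11, edgeR adjusted p = 1.99e-05). Itgb1, Itgb4, Itgb6, Lamb2 and Lamb3 were also called lower, and with any one library left out 7 to 11 members were called. Itgav, Itgb1, Itgb5, Lama1, Lama3 and Lamb1 were called in every alternative. Lamb3 was lost without F WT naive replicate 1, M WT naive replicate 2 or replicate 1 of either HDM group, Itgb6 without any of 4 libraries and Itgb4 without any of 6. In KO the test called 4 lower, whereas 1.79% of all genes were called lower, and none higher, whereas 1.77% were called higher. These were Lamb3 at -1.38 (SE 0.26, edgeR adjusted p = 0.0182), Lama3 at -1.27 (SE 0.26, edgeR adjusted p = 0.0243), Itgb4 at -0.80 (SE 0.17, edgeR adjusted p = 0.0318) and Itgav at -0.56 (SE 0.11, edgeR adjusted p = 0.0175). Leaving out single libraries gave 0 to 7 calls in KO, 0 without M KO naive replicate 1, either M KO HDM library, F KO naive replicate 1 or F KO HDM replicate 2.

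HDM-treated male and female WT cultures differed in 20 members. In males 17 were lower, whereas 20.3% of all genes were lower, and 3 were higher, whereas 21.3% of all genes were higher. The median over the members was -0.76, against 0.02 over all genes. Among the 13 subunits listed as epithelial 11 were lower in males. They included Lama3 at -1.64 (SE 0.19, edgeR adjusted p = 4.52e-05), Itgb5 at -1.49 (SE 0.13, edgeR adjusted p = 5.53e-06), Itgb8 at -1.08 and Itgb6 at -0.98. The other 6 lower in males were Lamb1, Lamb2, Itga5, Itga7, Itga11 and Itgb3. Itga6 and Itga2 were not called, at 0.17 and -0.06. The 3 higher in males were Lama1 at 2.61 (SE 0.40, edgeR adjusted p = 0.000379), Itgb7 at 2.17 (SE 0.64, edgeR adjusted p = 0.0178) and Itga1 at 1.02 (SE 0.25, edgeR adjusted p = 0.00715). Itga1, a collagen-binding chain of mesenchyme and muscle, held 5.51 and 7.88 CPM in M WT HDM and 3.37 and 3.22 CPM in F WT HDM, and its 8 male libraries (5.10 to 7.94 CPM) all lay above its 8 female libraries. Itgb7 held 13.1 and 3.89 CPM in M WT HDM and 1.87 and 1.89 CPM in F WT HDM, without overlap but with replicate 1 far above replicate 2 in males, and was lost without M WT HDM replicate 1 or either F WT HDM library (adjusted p up to 0.219). With any one of the 4 libraries left out, 13 to 15 members were called, and without both F WT replicate 2 libraries 12. Itga1 was lost without M WT HDM replicate 2, Lamb3 and Itgb8 without replicate 1 of either group, Itgb4 and Lama5 without M WT HDM replicate 2 or F WT HDM replicate 1, Itgb6 without replicate 2 of either group, and Itga3 without M WT HDM replicate 2 or either F WT HDM library (adjusted p up to 0.276 for these). In M WT HDM 6 of 7 basal and 6 of 6 secretory markers were higher than in F WT HDM, and their part in the differences was not tested.

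In KO cultures with HDM the difference between the sexes covered 11 members. In males 9 were lower, whereas 12.4% of all genes were lower, and 2 (Itga1 and Itga9) were higher, whereas 12.9% were higher. The lower ones included Lama3, Lamb3, Lamb1, Itga6, Itgb4, Itgav, Itgb5 and Itgb8, and the median over the members was -0.49. Lama3 was lower at -1.68 (SE 0.19, edgeR adjusted p = 0.000158) and Lamb3 at -1.32 (SE 0.19, edgeR adjusted p = 0.000609). Itga6 held 215 and 219.6 CPM in M KO HDM and 395 and 408 CPM in F KO HDM, or -0.89 (SE 0.16, edgeR adjusted p = 0.00219), whereas in WT the HDM-treated sexes overlapped. Itgb1 held 479 and 475 CPM and 694 and 657 CPM, at -0.50 (SE 0.17, edgeR adjusted p = 0.0533), just outside the threshold. Itga9 was higher in males, with 22.0 and 25.4 CPM against 12.3 and 13.3 CPM, or 0.89 (SE 0.17, edgeR adjusted p = 0.00336). With any one of these 4 libraries left out, 8 to 10 members were called. Itga1 was lost without either M KO HDM library or F KO HDM replicate 1, Itgav without either M KO HDM library or F KO HDM replicate 2, and Itgb8 without replicate 2 of either group (adjusted p up to 0.273 for these). Of 6 secretory markers 5 were higher in males, and of 7 basal markers 1 was higher and 1 lower.

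Before HDM almost no member was called. Between naive WT males and females edgeR called 0 members, whereas it called 0.1% of all genes, with 5 members at an unadjusted p under 0.05, against 12.31% of all genes, and DESeq2 called 1 member, Itgav, among 204 genes. Itgav held 188 and 175 CPM in M WT naive and 129 and 138 CPM in F WT naive, at 0.44 (SE 0.075, edgeR adjusted p = 0.0706). Between naive KO males and females 1 member was lower in males, Itgb2, whereas 0.0688% of all genes were lower, and none was higher, whereas 0.119% of all genes were higher. Itgb2, the β chain of leukocyte integrins, held 3.38 and 4.62 CPM and 10.1 and 9.85 CPM, or -1.31 (SE 0.22, edgeR adjusted p = 0.0488), and the call was lost without any one of the 4 libraries. KO minus WT gave 0 members and 0.0% of all genes for F naive, M naive and M HDM, with 0, 3 and 13 of 32 members at an unadjusted p under 0.05, against 1.27%, 5.42% and 18.11% of all genes. DESeq2 called 0 members in the first and second of these and 6 lower in M KO HDM, among them Itga6, Itgb4, Lama3, Lamb1 and Lamb3, where it called 562 of all 15993 genes. In that comparison Lamb3 held 162 and 147 CPM in M KO and 347 and 373 CPM in M WT, at -1.22 (SE 0.19, edgeR adjusted p = 0.159), and Lama3 85.2 and 74.6 CPM and 157 and 141 CPM, at -0.90 (SE 0.19, edgeR adjusted p = 0.159). The genotype difference in response among males called 0 members and 0.0% of all genes, and DESeq2 called 0 members. There 2 of 32 members had an unadjusted p under 0.05, against 8.68% of all genes.

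Among stromal subunits, Itgb3, Itga11 and Lama4 were highest in the libraries rich in fibroblast markers. Itgb3 held 5.52 and 18.5 CPM in F WT naive and 13.2 and 42.8 CPM in F WT HDM libraries, the second library being higher both times, 8.01 and 9.04 CPM and 8.27 and 8.77 CPM in F KO and 2.65 to 8.58 CPM in males. Fibroblast markers summed to 27.4 and 547 CPM in F WT naive and 49.4 and 598 CPM in F WT HDM. The smooth muscle and myofibroblast gene Acta2 held 52.3 and 127 CPM in F WT naive and 272 and 441 CPM in F WT HDM. Its log2 fold change of 1.98 was not called (edgeR adjusted p = 0.0796). Of 5 tested smooth muscle markers 0 were called there, with Tagln at 0.71, Actg2 at 0.60, Cnn1 at -0.60 and Myh11 at -2.34. Itgb3 was lower in M WT HDM than F WT HDM at -2.96 (SE 0.69, edgeR adjusted p = 0.00518), and without F WT HDM replicate 2 this became -1.88 with an adjusted p of 0.0672. Itga5 held 25.0 and 54.5 CPM in F WT naive, 43.6 and 66.1 CPM in F WT HDM and 18.5 and 20.4 CPM in M WT HDM, the last being lower than F WT HDM at -1.49 (SE 0.33, edgeR adjusted p = 0.00394). That call held without F WT HDM replicate 2, at -1.16 and an adjusted p of 0.0437. Itga11, a collagen-binding chain of fibroblasts, held 0.874 and 1.61 CPM in F WT HDM and 0.0315 and 0.216 CPM in M WT HDM, where 1 library had a single count, and Itga7, the laminin-binding chain of muscle, held 0.499 and 1.89 CPM and 0.189 and 0.494 CPM. Both were called between these groups, Itga11 at -3.27 (SE 1.17, edgeR adjusted p = 0.042) and Itga7 at -1.78 (SE 0.65, edgeR adjusted p = 0.0452). Itga7 was lost without F WT HDM replicate 2, at -0.54, or M WT HDM replicate 1, and Itga11 without any one of the 4 libraries (adjusted p up to 0.191). Of 8 fibroblast markers 2 were called higher with HDM in F WT, whereas 20.6% of all tested genes rose, and 0 were called lower. Estimates that were not called went both ways, such as Col1a1 at -2.38, Thy1 at -1.50, Col3a1 at 1.27 and Pdgfra at 2.23. Dcn held 2.00 and 2.56 CPM naive and 2.25 and 45.9 CPM with HDM and Lum 0.254 and 0.877 CPM and 1.04 and 28.0 CPM, so that without F WT HDM replicate 2 the treated value of Dcn lay between the naive ones. Between M WT HDM and F WT HDM 3 of 8 fibroblast markers were lower in males, and the part of fibroblast RNA was not tested.

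**Figure D5:**
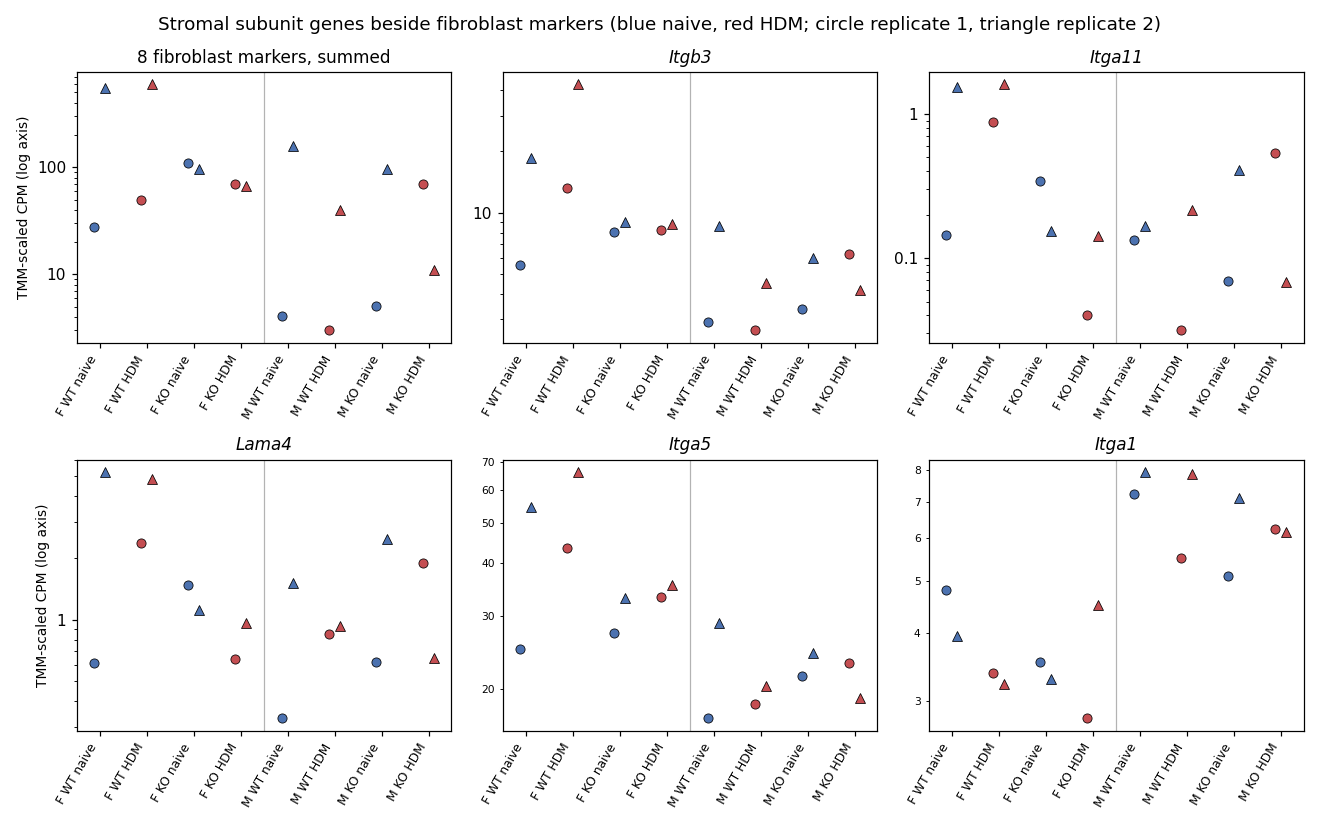
Summed fibroblast markers and 5 stromal subunit genes in TMM-scaled CPM (y axes, log scale) by group (x axes), circles for replicate 1 and triangles for replicate 2. The summed markers span 2.99 to 598 CPM, and Itgb3, Itga11 and Lama4 have their 2 highest values in F WT naive and F WT HDM replicate 2, whereas Itga1 is higher in all 8 male libraries than in all 8 female ones.

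The remaining members were near the limit of these libraries. Itga10 held 1.17 to 1.94 CPM over the 16 libraries, Itgam 0.999 to 2.29, Itga4 0.546 to 1.33 and Itga2b 0.541 to 1.02 CPM, and neither these nor Itga8 were called in any comparison with the design used here. Itga8, a mesenchymal partner of β1, lay just outside the threshold, with 0.0727 and 0.202 CPM and 0.541 and 0.853 CPM in F WT, at 2.20 (SE 0.83, edgeR adjusted p = 0.0506). Itgal, the α chain of the lymphocyte integrin LFA-1, varied over 0.464 to 6.46 CPM with replicates as far apart as 0.464 and 6.46 CPM in M WT naive. Of the 6 members that were not tested, Itgad had 0 counts in all 16 libraries, which at a floor of 3 counts allows up to 0.137 CPM in the smallest library. Itgae, Itgax and Itgb2l, chains of lymphocytes and myeloid cells, reached at most 12, 14 and 10 counts. Leukocyte markers (7 genes) summed to 108 to 303 CPM, most of it Lyz2, while the defining marker Ptprc did not exceed 6.41 CPM.

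Genes that work with these subunits were described by counts alone, to be read against the shares of all genes that rose and fell with HDM, 20.6% and 22.4% in F WT and 4.63% and 5.77% in F KO. Of 26 integrin adaptor and hemidesmosome genes, 16 rose and 4 fell with HDM in F WT and 9 rose and 2 fell in F KO, with a median log2 fold change of 0.53 and 0.29. Actn1, an actin crosslinker at adhesions, rose by 2.10 in F WT and 1.05 in F KO, Tns4, a tensin that binds β integrin tails, by 1.58 and 1.19, and Flna, an actin-binding scaffold, by 1.57 and 1.04. Dst and Plec, linkers of hemidesmosomes to keratin filaments, were not called in F WT (-0.08 and 0.01) and rose in F KO by 0.43 and 0.45, but the test of the difference between the responses called neither. Col17a1, the transmembrane collagen of hemidesmosomes, held 382 and 155 CPM in F WT HDM and 538 and 536 CPM in F KO HDM, and was higher in F KO at 1.00 (SE 0.32, edgeR adjusted p = 0.0354). Cd151, a tetraspanin that binds α3β1 and α6β4, rose from 266 and 264 CPM to 466 and 527 CPM in F WT.

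Of 28 basement membrane and integrin ligand genes 26 were tested, of which 16 rose and 4 fell in F WT and 6 rose and 1 fell in F KO, with a median log2 fold change of 1.22 and 0.42. Hspg2, which encodes perlecan, went from 52.6 and 86.0 CPM to 750.4 and 734 CPM in F WT, or 3.42 (SE 0.23, edgeR adjusted p = 9.94e-07), and from 53.4 and 68.4 CPM to 196 and 242 CPM in F KO, or 1.85 (SE 0.22, edgeR adjusted p = 0.000651). Male libraries of Hspg2 held at most 85.6 CPM. Fn1, the fibronectin gene, went from 536 and 1045 CPM to 3634 and 6234 CPM in F WT, or 2.64 (SE 0.36, edgeR adjusted p = 0.000147), and was not called in F KO, at 0.51. Nid1, which links laminin to collagen IV and is largely made by mesenchyme, went from 3.09 and 23.7 CPM to 125 and 339.7 CPM, with the higher value each time in the library rich in fibroblast markers. Vcam1, a ligand of α4 and α9 integrins, went from 7.48 and 7.51 CPM to 69.4 and 91.7 CPM in F WT, or 3.42 (SE 0.24, edgeR adjusted p = 1.65e-06), and Nid2 fell in both female genotypes, at -1.13 and -1.87. None of these 52 tested genes was called for HDM in M WT or M KO, where 0.0% of all genes were called.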

How the data were processed

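The authors deposited raw read counts per gene for 16 MTEC libraries, 2 per group in 8 groups, labelled as biological replicates. The submitters' processing notes name Trimmomatic 0.36, STAR 2.5.2b, featureCounts, Subread 1.5.2, DESeq2 and the build GRCm38, and the strand setting of the counting is not given in the sources used here. No column of values was left unused. Library totals of 21860698 to 43442188 counts limit precision mainly for members near the floor of 3 counts. Pools of tracheas served both treatments, but the main fit holds no term for a shared pool. Its p-values rest on the spread between cultures of the same group, estimated over all 8 groups with 8 residual degrees of freedom. They do not measure the spread between animals.

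Of 49315 gene identifiers, 49056 matched GENCODE M21, which gave symbols, gene types, positions and exon lengths. Genes passing filterByExpr (15993) were scaled by TMM and fitted over all 16 libraries with edgeR 4.0.16 in R 4.3.3, with 1 coefficient per group. Each of 16 contrasts was tested by the quasi-likelihood F test, with Benjamini-Hochberg adjustment over all tested genes and a threshold of 0.05 for a call. CPM values are counts over the TMM-scaled library size, and levels of different genes were compared per kb of exon. The script was tested on simulated data. DESeq2 1.42.0, other scalings, no filter, a replicate block, fits on the compared libraries alone and leaving out each library were the alternatives. Figures were drawn with Python 3.11.15.

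The members and gene lists were chosen with earlier results of these data known. Members are described with values by library for those called in at least 1 contrast and for Lama3, Lamb3, Itga6 and Itgb4, except that the values of 1 member are not reported here although counts and medians over members include it. No explanation of a difference was tested.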

Additional observations from a re-analysis of the deposited data

Results flagged for a closer look

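The response to HDM differed between groups by the edgeR test of the difference itself for the members below, given on the log2 scale. Between the sexes in WT (male minus female response), the differences were -1.26 for Itgav, -1.47 for Itgb5, -1.7 for Lama3, -1.97 for Lamb1, -1.2 for Itgb1, -0.61 for Lamb2, -1.01 for Lamb3, -1.41 for Itgb6 and -0.53 for Itgb4, whereas Lama1 differed by 2.57. Between the sexes in KO they were -0.56 for Itgav, -1.38 for Lamb3, -1.27 for Lama3 and -0.8 for Itgb4. Between the genotypes in females (KO minus WT response) they were -1.17 for Itgb5, -0.52 for Itgav, -1.49 for Lamb1, -0.59 for Lamb2, -0.88 for Itgb1 and -0.88 for Lama3, whereas Lama1 differed by 2.04. The comparisons in WT and between female genotypes share the F WT libraries. In the former, Itgav, Itgb1, Itgb5, Lama1, Lama3 and Lamb1 were called under all 16 alternatives, and in the latter Itgb5 was the 1 member for which that holds. Within F KO the level of Lman1 differed between treatments, at 12.8 CPM in both F KO naive libraries and 66.6 and 78.1 CPM in F KO HDM, and its part in the differences was not tested.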

How the results depend on the processing

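Over 90 called pairs of member and comparison, 929 of 1142 alternatives kept the call, 213 lost it and 0 reversed the direction, and 42 pairs were called under every alternative, a required 2-fold change aside. The numbers of called members stayed within 1.5 times in 159 of 215 alternatives. Those 159 include alternatives in which neither the main fit nor the alternative called a member, as for HDM in M WT. Requiring also a 2-fold change left 1 member for HDM in F KO, 12 for male minus female in WT HDM and 5 in KO HDM. It left 4 for KO minus WT in F HDM, 2 for sex by HDM in KO and 3 for genotype by HDM in F. Of all 15993 genes, 582, 2722, 1424, 1415, 331 and 760 met that rule in these comparisons. With no filter the counts were 13 for HDM in F KO, 7 in M KO, 8 for male minus female in WT naive, 4 in KO naive and 20 in KO HDM. They were 1 for KO minus WT in M naive, 14 in M HDM, 18 for sex by HDM in WT, 14 in KO, 13 for genotype by HDM in F and 5 in M. In that order, the unfiltered fit called 2717, 705, 644, 859, 4536, 98, 1896, 4454, 1977, 3029 and 668 of all 29397 genes. Fits on only the compared libraries called 15 for HDM in F KO, 0 for male minus female in KO naive, 19 in KO HDM and 9 for sex by HDM in KO. Of all genes they called 2804 of 14969, 9 of 15190, 5820 of 14686 and 793 of 15427. DESeq2 called 1 for male minus female in WT naive, 6 for KO minus WT in M HDM and 9 for sex by HDM in KO. Of all 15993 genes it called 204, 562 and 1192. Scaling by library size only called 0 members for male minus female in KO naive and 21 of all genes. Without F WT naive and HDM replicate 2, chosen after seeing the data, 12 were called for male minus female in WT HDM, 6 for KO minus WT in F HDM and 3 for genotype by HDM in F. The cause of these moves was not tested. Leaving out 1 library gave 12 to 16 for HDM in F WT, 1 to 4 in F KO, 13 to 15 for male minus female in WT HDM, 0 to 0 in KO naive, 8 to 10 in KO HDM, 6 to 10 for KO minus WT in F HDM, 7 to 11 for sex by HDM in WT, 0 to 7 in KO, 2 to 4 for genotype by HDM in F, and 0 elsewhere. The lone library of a group was then assumed to vary like the others.

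Replicate numbers were not known to mark a shared pool. Between naive and HDM groups, deviations of same-numbered libraries correlated at 0.286 in F WT, -0.0511 in F KO, 0.437 in M WT and -0.144 in M KO. Over all compared pairs of groups, including those of different sex or genotype, the range was -0.164 to 0.483. The replicate block was 1 term for replicate number over all 16 libraries, so it did not model pools within a sex and genotype. With a replicate block the counts were 18 for HDM in F WT (Itga8 and Itgb7 being added, as in the fit on only the compared libraries) and 7 in F KO. They were 19 and 11 for male minus female in WT HDM and KO HDM, 1 in KO naive and 14 for KO minus WT in F HDM. For sex by HDM in WT and KO they were 12 and 4, for genotype by HDM in F 6, and elsewhere 0. In that order, 6942, 1664, 6670, 4138, 44, 4714, 3874, 575 and 1737 of all 15993 genes were called where members were. Depth limits statements about Itgad, Itgae, Itgax, Itgb2l, Lama2 and Lamc3, which had too few counts to test.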
